A study of Mus musculus with 13 samples.

Results

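The cells described here carry UMIs of T, which encodes brachyury, in single-cell RNA sequencing of mouse embryos without head and limbs, where a UMI is a molecular identifier that lets each captured transcript be counted once. Barcodes with at least 2000 UMIs and 500 genes were taken as cells, and the cells were chosen by their own T count, with at least 2 UMIs of T. They numbered 407 of 34605 embryonic cells, with 213 of 5657 in E8.5 replicate 2, 83 of 14667 in E10.5 replicate 1 and 111 of 14281 in E10.5 replicate 2. In the other matrices of the series, which hold hearts of E12.5 to P3, 3 of 41586 cells met the rule. Cells with at least 1 UMI of Foxa2 or Shh are called notochord type (89 cells) and those with none are called tailbud type (318 cells).

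The study profiled the developing mouse heart, and its youngest samples were embryos of wild-type C57Bl/6J mice at embryonic stages E8.5 and E10.5, taken after head and limbs had been cut off. Each library is a suspension of dissociated cells run on the 10x Genomics droplet platform, and no treatment or allele was involved. The trunk and tail were therefore kept, and no sort for T or for any region was made. E8.5 gave 1 library here and E10.5 gave 2; E8.5 replicate 1 was not analysed here. The title of the E8.5 library analysed gives its replicate as 1 and its bracketed name as 2, and it is called replicate 2 after the latter, while the number of embryos behind each library is not given in the sources used here.

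Brachyury is a T-box transcription factor, active in the primitive streak, the tailbud and the notochord. In the tailbud, progenitors that express T with Sox2 and Cdx2 add both spinal cord and paraxial mesoderm to the growing body axis under Wnt and FGF signals, and Tbx6 marks the branch that enters the presomitic mesoderm. The notochord is a rod of cells under the neural tube that expresses T, Foxa2, Noto and Shh and patterns the tissues around it.

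The libraries held 151735273, 259041468 and 254118869 UMIs in the order E8.5 replicate 2, E10.5 replicate 1 and E10.5 replicate 2, the order used for all triplets of values in this text. The median cell over the floors had 24516, 14565 and 14949 UMIs, and the median T-positive cell 24314, 23397 and 21362. The E8.5 library thus had the deepest median cell, while T-positive cells of all 3 libraries were of similar depth. Barcodes shared between libraries numbered 104 to 263 per pair and none was shared by T-positive cells. T was also read in barcodes of at most 100 UMIs, at 12.9, 4.29 and 4.96 counts per 1e6 UMIs (CPM), so some T was free RNA. In endothelial cells (at least 2 UMIs of Pecam1 and Cdh5 together), which should lack T, 5.79, 4.39 and 5.83% of the cells had at least 1 UMI of T, and 3 of 190, 1 of 501 and 6 of 463 had 2 or more. Those few were not removed and also count as T-positive cells. The endothelial cells as a whole, with medians of 31906, 20274 and 21192 UMIs, serve below as the background for shares of cells with a UMI. A simulation-based doublet score was kept out of the rule. The highest scores were marked, up to the number predicted from the count of cells over the floors. This marked 256, 1721 and 1632 cells, or 4.53, 11.7 and 11.4% of all. Among them were 15, 21 and 30 T-positive cells (7.04, 25.3 and 27.0%), a larger share than of all cells in each library. Of 42, 23 and 24 notochord type cells 37, 9 and 8 remained.

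T-positive cells made up 3.77% of the cells at E8.5 (95% exact binomial interval 3.28 to 4.29) and 0.566% (0.451 to 0.701) and 0.777% (0.640 to 0.935) at E10.5. All intervals cover counting error only. With 1 library at E8.5 no test between stages was possible, and stage and library cannot be told apart. Notochord type cells were 42 of 213 at E8.5 (19.7%) and 23 of 83 and 24 of 111 at E10.5 (27.7 and 21.6%). With marked doublets out these shares were 18.7% at E8.5 and 14.52 and 9.88% at E10.5, so both E10.5 libraries then lay below E8.5 and not above it. The T level, which chose the cells, is given as a description. The median cell of the tailbud type had 5, 4.5 and 4 UMIs of T and that of the notochord type 10, 11 and 9.5, and the highest counts were 29, 23 and 23 against 52, 61 and 47. The notochord type held more T per cell in each library. Just inside the threshold, cells with exactly 2 UMIs of T numbered 38, 21 and 23, and 81.6, 52.4 and 60.9% of them had a UMI of Cdx2. Just outside it, 138, 101 and 115 cells had 1 UMI of T, and 46.4, 20.8 and 14.8% of these had Cdx2.

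**Figure D1:**
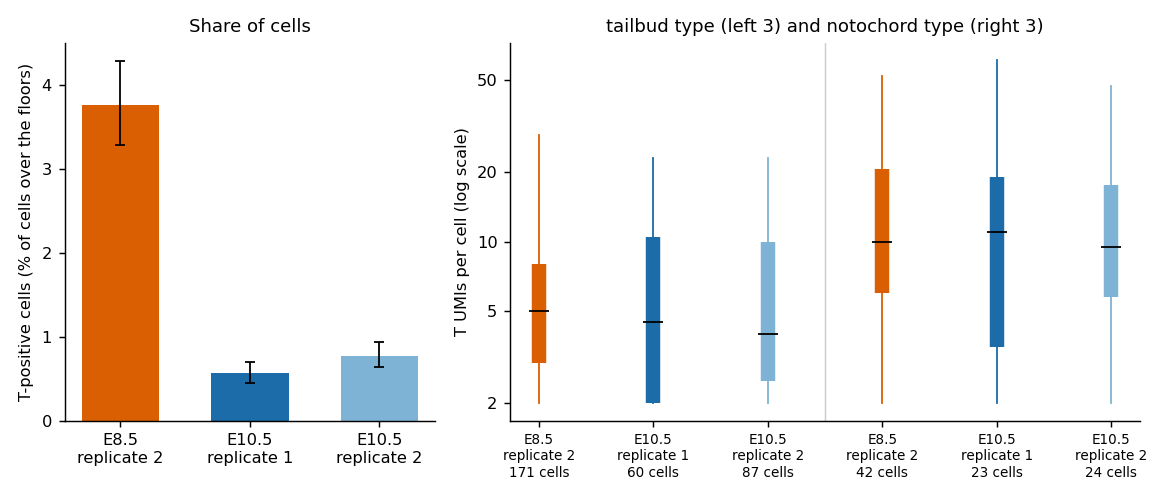
Left, T-positive cells as a percentage of cells over the floors in each library, as bars from 0 with exact 95% binomial intervals (3.77, 0.566 and 0.777%). Right, UMIs of T per cell on a log axis for both types, where thin lines span the range, thick bars the middle quartiles and black marks the medians (5, 4.5 and 4 in the tailbud type, 10, 11 and 9.5 in the notochord type).

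The labels of both types were checked against marker genes that the rule did not use. Cdx2, a caudal homeobox gene, had a UMI in 92.4, 81.7 and 81.6% of tailbud type cells and in 69.0, 65.2 and 54.2% of notochord type cells, against 3.68, 0.798 and 1.08% of endothelial cells. Noto, a homeobox gene of the node and notochord, was seen in 33.3, 39.1 and 20.8% of notochord type cells, in 2, 1 and 0 tailbud type cells, and in none of the endothelial cells, where a count of 0 allows up to 1.58, 0.599 and 0.648%. Keratin Krt8 was seen in 85.7, 78.3 and 87.5% of notochord type cells and in 19.3, 28.3 and 10.3% of tailbud type cells, against 12.6, 4.59 and 6.26% of endothelial cells. These markers lay on the side that each name states, but the notochord type also holds Cdx2-positive cells that lack Noto. Epcam, of the gut endoderm gene list, had a UMI in 50, 21.7 and 29.2% of notochord type cells. Krt8 was also high in the gut endoderm cells defined below, at 478, 363 and 388 CPM of their summed UMIs. It therefore does not tell the notochord type from gut endoderm. Cells of both types come from droplets, in which few transcripts are caught, so an absent UMI does not show an absent transcript. UMIs of Foxa2 were present in 32, 13 and 11 notochord type cells and UMIs of Shh in 24, 19 and 18, with both genes in 14, 9 and 5.

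UMIs were summed per library and cell type, and all levels below are CPM of those sums unless a share of cells is named. Sums were compared with cells that had no UMI of T from the same libraries. Paraxial cells had no Foxa2 or Shh and at least 2 UMIs of Meox1 and Tcf15 together. Spinal neural cells had none of these 4 genes but at least 2 UMIs of Sox2 and 2 of Hoxb5 to Hoxb9. Gut endoderm cells had Foxa2 or Shh with at least 2 UMIs of Epcam, and floor plate cells had at least 2 UMIs of Foxa2 and Shh together and 2 of Sox2 with Epcam below 2. Each comparison rests on 3 libraries and used edgeR's quasi-likelihood test with the library as a block and p-values adjusted by Benjamini and Hochberg's method across the whole table, and the genes that define a gate give no finding. A gene is called higher or lower at an adjusted p under 0.05. Genes are counted below in lists by tissue or pathway, and some belong to several lists. Hes7, Dll1 and Lfng are presomitic and Notch genes, Fgf8 and Fgf17 caudal and FGF genes, and Rspo3 and Lef1 presomitic and Wnt genes. Counts of such lists therefore overlap and are not independent. Genes expressed along with a gate gene can also be raised in that gate by the choice of cells, which was not tested.

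The tailbud type held caudal progenitor genes at higher levels than paraxial cells. Of 18 caudal progenitor genes tested, 17 were higher and none lower, with a median log2 fold change of 3.37, where 7.21% of all 11698 genes tested were higher, 5.31% were lower and the median was -0.01. Lin28b was the exception, at a log2 fold change of -0.22. Cdx4, a caudal homeobox gene, was at 205, 134 and 117 CPM in the tailbud type and 1.85, 0.806 and 0.667 CPM in paraxial cells, a log2 fold change of 7.22 ± 0.53 (SE, edgeR adjusted p = 9.83e-09). Cdx2 was at 192, 213 and 187 against 4.06, 1.40 and 1.53 CPM (6.59 ± 0.53, edgeR adjusted p = 2.85e-08). Neither gene overlapped between the groups, and the level of Cdx4 was highest in the E8.5 library in both.

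FGF ligands were among the widest differences. Fgf17 was at 222, 275 and 254 CPM against 2.89, 4.01 and 3.72 (log2 fold change 6.10 ± 0.37, edgeR adjusted p = 6.28e-10), and Fgf3 at 36.9, 43.9 and 88.8 against 1.40, 0.933 and 1.10 (5.61 ± 0.35, edgeR adjusted p = 1.15e-09). Fgf8 was at 175, 213 and 166 against 14, 14.4 and 16.9 CPM, a log2 fold change of 3.65. All 3 ligands were high in every tailbud type sum and low in every paraxial sum. Of 14 FGF genes tested, 9 were higher and 1 lower. The higher ones included genes that FGF signalling is known to induce, Spry4 at 3.04, Etv4 at 1.89 and Etv5 at 1.17 on the log2 scale, and the lower one was the receptor gene Fgfr2 at -1.24.

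Wnt genes followed the same direction, with 10 of 16 higher and 2 lower. The ligand gene Wnt3a was at 15.6, 18.0 and 28.7 CPM against 0.452, 0.763 and 0.516, and Wnt5a at 55.5, 122 and 144 against 11.9, 18.2 and 17.5, differences of 5.23 and 2.70 on the log2 scale. Rspo3, which encodes a secreted amplifier of Wnt signalling, was at 467, 457 and 496 CPM against 24.2, 48.0 and 44.5 (3.67). These 3 genes did not overlap between the groups in any library. Lef1, a nuclear partner of beta-catenin, was higher by 2.11 and the Wnt feedback gene Axin2 by 1.20. Tcf7l1, a repressor of Wnt targets, and the antagonist gene Sfrp1 were lower, at -0.90 and -0.65. Antagonist genes did not all go that way. Dkk1, another of them, was at 72.6, 27.3 and 34.4 CPM in the tailbud type against 2.57, 2.48 and 2.17 in paraxial cells.

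Presomitic genes were higher in 13 of 17 and lower in 2. Hes7, the oscillating repressor of the segmentation clock, was at 198, 237 and 273 CPM against 7.32, 3.94 and 4.84 in paraxial cells (5.52 ± 0.28, edgeR adjusted p = 7e-11). Tbx6 was at 40.9, 67.8 and 81.6 against 1.45, 1.44 and 1.57 CPM (5.39 ± 0.28, edgeR adjusted p = 8.45e-11). Both were lowest at E8.5 among the tailbud type sums and did not overlap with the paraxial ones. The Notch ligand genes Dll1 and Dll3 were higher by 2.91 and 3.00 on the log2 scale and Lfng, which modifies the Notch receptor, by 1.93, and 10 of 13 Notch genes were higher and 2 lower (Heyl and Notch2). The 2 lower presomitic genes, Ripply2 at -3.51 and Aldh1a2 at -2.46, belong to the anterior end of the tissue, where segments form and retinoic acid is made. Ripply2 was at 0.214, 1.33 and 1.03 CPM, from few UMIs, against 11.7, 2.2 and 3.94, so its size is uncertain.

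Retinoic acid genes split, with 4 of 12 higher and 4 lower. Cyp26a1, the enzyme that degrades retinoic acid, was at 83.4, 176 and 189 CPM in the tailbud type and 3.12, 3.31 and 4.22 in paraxial cells, a log2 fold change of 5.36. Aldh1a2, the enzyme that makes it, ran the other way at 8.57, 5.32 and 9.75 against 65.5, 33.3 and 30.6 CPM. The receptor gene Rarg was higher by 2.1 and Rarb lower, at -1.64. Neither enzyme overlapped between the groups.

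Somite genes were lower in 8 of 9 tested, with none higher. This count leaves out the gate genes Meox1 and Tcf15, and genes expressed along with them can be raised in paraxial cells by that choice. Meox1 or Tcf15 had a UMI in 31.6, 66.7 and 72.4% of tailbud type cells. At 2 or more UMIs together, the cut of the paraxial cells, the shares were 8.19, 45 and 41.4%. Uncx, Meox2, Pax1 and Tbx18, regulators of the formed somite and its parts, were nearly unread in the tailbud type. Its sums held 0, 1 and 0 UMIs of Uncx (0, 0.665 and 0 CPM against 21.6, 44.5 and 48.8 in paraxial cells), 1, 1 and 0 of Meox2, 1 in each library of Pax1 and 2, 1 and 3 of Tbx18, so no fold change is given for them. Pax9, at -0.87, did not pass. The naming rule gave 8 other genes that were lower. Arg1, which encodes arginase, was at 7.07, 4.65 and 5.13 CPM against 153, 39.8 and 37.9 (-3.64 ± 0.38, edgeR adjusted p = 9.49e-07), Cxcl12, a chemokine gene, was lower at -3.14, and the transcription factor genes Ebf1, Sox9, Twist1 and Nr2f1 at -2.91, -2.83, -2.74 and -2.64. Col26a1, a collagen gene, was lower at -3.19. Hba-a2, a globin gene whose reads are shared with the near-identical Hba-a1, was at 6.00, 33.2 and 37.5 against 55.6, 160 and 231 CPM (-2.64 ± 0.66, edgeR adjusted p = 0.0103), and 5 of 7 globin genes were lower. Without E10.5 replicate 1 the call of Hba-a2 was lost, at -2.80, and the part of free red cell RNA was not tested.

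The remaining large increases over paraxial cells were Arl4d, a small GTPase gene, at 81.4, 81.1 and 119 CPM against 2.08, 2.06 and 2.28 (5.43 ± 0.18, edgeR adjusted p = 1.94e-13), and Evx1os at 70.9, 81.1 and 77.0 against 0.271, 0.530 and 0.409 (7.41 ± 0.34, edgeR adjusted p = 1.83e-11). Evx1os lies antisense to Evx1, a caudal homeobox gene that was itself higher by 6.58. The library type keeps strand, and the counting, run at default parameters per the methods of the study, takes reads in the sense of the gene. Of 36 Hox genes tested, 30 were higher and none lower, with a median of 1.82. With all 3 libraries 843 genes were higher and 621 lower, 1464 in all, against 736 in all without E10.5 replicate 1, 726 without E10.5 replicate 2 and 2124 without E8.5 replicate 2, so the count depended on which library was left out.

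**Figure D2:**
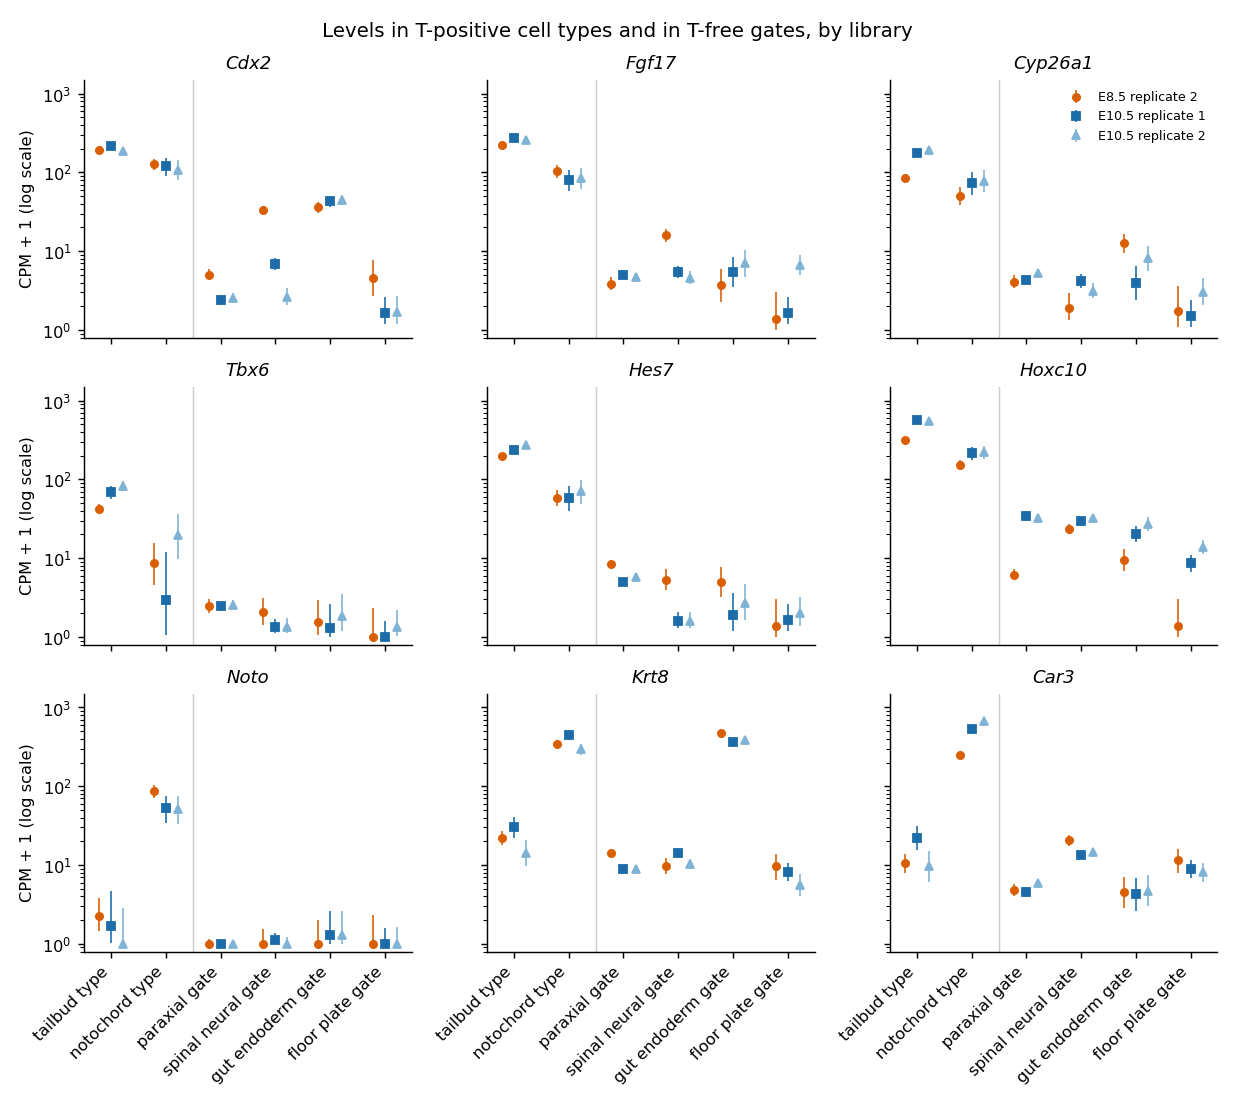
CPM + 1 on a log axis for 9 genes in both T-positive types (left of the grey line) and in 4 groups of T-free cells, with 1 point per library and exact 95% Poisson intervals for counting error. Hes7 was higher in the tailbud type than in the notochord type, and Cdx2, whose levels of 192, 213 and 187 against 126, 118 and 107 CPM did not pass the test, was read in both, while Noto and Car3 were high in the notochord type and Krt8 there and in gut endoderm cells.

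Against spinal neural cells the tailbud type again held caudal and presomitic genes at higher levels. The share of genes called was larger here, with 12.2% of 11692 genes higher and 10.3% lower. Caudal progenitor genes were higher in 15 of 17, with none lower, and presomitic genes in 12 of 17 with Aldh1a2 lower at -1.43. Hes7 was at 4.34, 0.599 and 0.586 CPM in spinal neural cells (7.49 ± 0.35, edgeR adjusted p = 2.14e-11) and Tbx6 at 1.05, 0.327 and 0.352 (7.05 ± 0.35, edgeR adjusted p = 6.28e-11), far below the tailbud type values given above in every library. Cyp26a1, Fgf17 and Fgf8 were higher by 5.97, 5.24 and 5.14 on the log2 scale. Lmo2, a transcriptional cofactor gene known from blood development, was at 106, 170 and 197 CPM against 5.38, 3.43 and 3.05 (5.40 ± 0.29, edgeR adjusted p = 1.13e-10), without overlap.

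Neural genes were lower. Of 15 spinal neural and floor plate genes tested, 12 were lower and none higher, with a median of -2.69. Spinal neural cells were chosen by Sox2, so genes expressed along with it can be raised there by that choice. Neurog2, a proneural gene, was at 0.429, 1.33 and 1.03 CPM in the tailbud type against 25.1, 63.2 and 63.5 (-5.80 ± 0.49, edgeR adjusted p = 5.34e-08). Its tailbud type values lie below the level of 3 UMIs (0.643, 1.99 and 1.54 CPM), so the size is uncertain. Pax6, a neural tube transcription factor gene, was at 9, 12 and 17.4 against 194, 150 and 155 (-3.81 ± 0.29, edgeR adjusted p = 1.24e-08), and the Notch target Hes5 was lower at -3.24. Fgfbp3, Fez1, Pou3f2, Pantr1 and Mir124-2hg, a host transcript of a neuronal microRNA, were lower at -4.20, -4.08, -3.99, -3.77 and -4.07. Proliferation genes were also lower, in 10 of 17 cell cycle genes, with small sizes of -0.36 to -0.76, while Cdkn1a, which encodes the inhibitor p21, was higher by 2.96. Endothelial genes were higher in 6 of 8 in this comparison, although their summed level in the tailbud type was 83, 110 and 168 CPM against 1482, 1932 and 1854 in endothelial cells and their part in other results was not tested. With at least 3 UMIs of T required none of the endothelial genes passed, and Emcn and Kdr were at -0.53 and -0.48. Without E10.5 replicate 1 the comparison with spinal neural cells called 1393 genes and without E10.5 replicate 2 it called 1122, of 2621 with all libraries.

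Both Sox2 and Tbx6 were read within the tailbud type. Sox2 had a UMI in 28.7, 40.0 and 29.9% of the cells and Tbx6 in 49.1, 58.3 and 57.5%. In endothelial cells Sox2 was seen in 8.42, 16.6 and 14.9% and Tbx6 in 0 of 190 (which allows up to 1.58%), 0.399 and 0.864%, so Sox2 carried the larger background. Nkx1-2, a homeobox gene of axial progenitors, was seen in 23.4, 25 and 18.4% of the cells. Sox2 and Tbx6 were found together in 10, 12 and 8 cells (5.85, 20 and 9.20%), Sox2 alone in 39, 12 and 18, Tbx6 alone in 74, 23 and 42 and neither in 48, 13 and 19. With cells thinned to 5000 UMIs the expected shares were 7.51, 18.0 and 14.6% for Sox2, 17.3, 26.9 and 29.2% for Tbx6 and 0.349, 3.44 and 1.27% for both. Msgn1, a basic helix-loop-helix gene of the presomitic mesoderm, had a UMI in 4, 0 and 2 cells. In endothelial cells Nkx1-2 was seen in 0.526, 0.200 and 0.216% and Msgn1 in none.

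The cells with Sox2 alone and those with Tbx6 alone, groups formed after the values were seen, are described without a test. Their median cells had 28930, 27485 and 23893 UMIs with Sox2 alone and 25150, 25106 and 19597 with Tbx6 alone. Nkx1-2 was at 48.5, 23.3 and 44.9 CPM with Sox2 alone and 4.07, 5.02 and 3.29 with Tbx6 alone. Hes3, a gene of the caudal progenitor list, was at 77.2, 69.8 and 24.7 against 2.55, 1.67 and 1.10. Dll1 ran the other way, at 4.77, 5.82 and 4.49 against 50.4, 53.6 and 69.0. In each of these genes the groups did not overlap, where of 6242 genes with at least 10 UMIs in every library over both groups 6.34% were higher with Sox2 alone without overlap and 7.96% lower. Lef1 was at 37.4, 43.7 and 33.7 CPM against 139, 182 and 182, Lfng at 2.39, 2.91 and 2.24 against 15.8, 36.8 and 62.5, and Snai1, a gene of the epithelial to mesenchymal transition, at 5.57, 5.82 and 2.24 against 58.6, 45.2 and 74.5. Rspo3 was at 295, 169 and 222 against 576, 608 and 701 CPM, and Cited1, a transcriptional coactivator gene, at 89.9, 26.2 and 40.4 against 711, 387 and 383. Dll1, Lfng, Lef1, Snai1, Rspo3 and Cited1 were each lower with Sox2 alone than with Tbx6 alone in every library, in groups that were themselves split by Tbx6. Cells with both genes, only 8 to 12 per library, had Nkx1-2 at 8.86, 33.5 and 8.82 CPM.

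**Figure D3:**
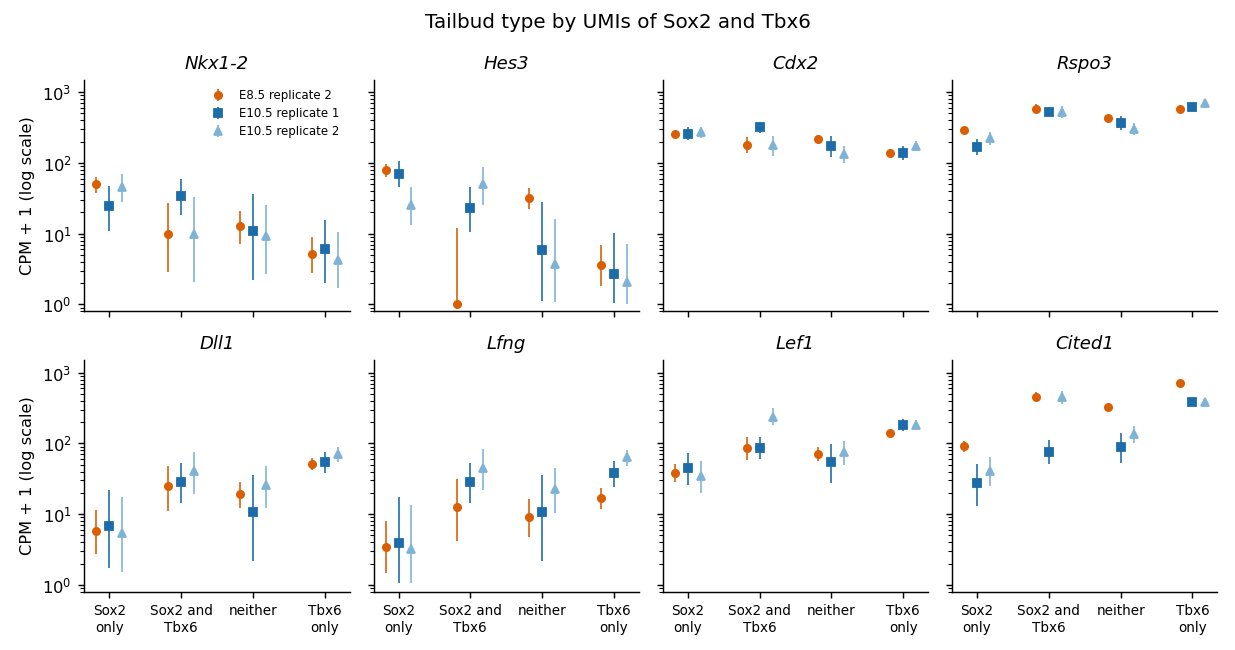
CPM + 1 on a log axis for 8 genes in tailbud type cells split by UMIs of Sox2 and Tbx6, 1 point per library with exact 95% Poisson intervals. Nkx1-2 and Hes3 were high with Sox2 alone, Rspo3, Dll1, Lfng, Lef1 and Cited1 with Tbx6 alone, and Cdx2 was read at a high level in all 4 groups.

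Among T-positive cells, the notochord type was higher than the tailbud type in 17 of 21 notochord genes tested, with none lower and a median log2 fold change of 3.46, where 3.91% of 11700 genes were higher, 3.38% were lower and the median was -0.03. Noto was at 85.2, 51.2 and 50.4 CPM against 1.29, 0.665 and 0 in the tailbud type (6.21 ± 0.52, edgeR adjusted p = 2.89e-06). Its tailbud type values at E10.5 lie below the level of 3 UMIs (1.99 and 1.54 CPM), so the size is uncertain. The keratin gene Krt8 was at 347, 447 and 294 against 21.2, 29.3 and 13.3 (4.01 ± 0.22, edgeR adjusted p = 8.52e-10). Sox9, a transcription factor of cartilage and notochord sheath, was at 109, 231 and 239 against 6.21, 12 and 10.8 (4.16 ± 0.26, edgeR adjusted p = 9.7e-09). No value of the tailbud type reached the lowest of the notochord type for these genes. Markers of other Foxa2 or Shh tissues moved too, with 4 of 12 gut endoderm genes higher and none lower (median 1.08), such as Epcam at 1.75 and Cldn6 at 1.98. Of 16 spinal neural and floor plate genes 5 were higher and none lower (median 1.12), such as Spon1 at 3.58 and Lmx1a at 10.2, 23.7 and 33.6 CPM against 0.429, 0.665 and 0, with 3 of these 5 calls kept when any 1 library was left out. Their part in the results was not tested.

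Other genes of the notochord list were higher as well. Car3, a carbonic anhydrase gene, was at 249, 530 and 682 CPM against 9.64, 21.3 and 8.72 (5.13 ± 0.34, edgeR adjusted p = 1.47e-08), and Col9a1 at 39.2, 69.0 and 56.7 against 1.71, 2.66 and 4.10 (4.22 ± 0.46, edgeR adjusted p = 9.25e-06). Nog, which encodes a BMP antagonist, was at 34.9, 84.7 and 98.6 against 6.00, 12 and 4.62 (log2 fold change 3.07), and the repellent gene Slit2 at 81.8, 185 and 153 against 7.29, 12.6 and 11.8 (3.56). All 4 genes were apart in every library. Sostdc1, an antagonist of BMP and Wnt signals, was higher by 5.49 and the adhesion gene Alcam by 3.85. Samd3 was read at 53.7, 78.8 and 56.7 CPM against 0.214, 0 and 0. Its tailbud type sums hold at most 1 UMI, so its fitted log2 fold change of 8.70 is not a bound. Of 11 Hedgehog and BMP genes tested, 3 were higher, namely Nog, Bmp7 (1.42) and Ptch1 (1.49), the receptor gene that Hedgehog signalling induces, and none was lower.

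Of 17 presomitic genes tested, 12 were lower in the notochord type than in the tailbud type and 1 was higher. Notch genes were lower in 5 of 13, caudal progenitor genes in 5 of 18 with 1 higher, FGF genes in 4 of 14 and Wnt genes in 4 of 16 with 4 higher. These lists share genes with each other, so their counts overlap. Without E10.5 replicate 1 the lower calls kept were 8 presomitic, 3 Notch, 1 caudal, 1 FGF and 2 Wnt genes, without E10.5 replicate 2 they were 5, 1, 2, 2 and 1, and without the library as a block 7, 3, 1, 1 and 1. Tbx6 was at 7.67, 1.97 and 18.9 CPM in the notochord type (-2.84 ± 0.39, edgeR adjusted p = 0.000112), Hes7 at 57.1, 57.2 and 69.3 (-2.13 ± 0.31, edgeR adjusted p = 0.000285) and Lef1 at 23.0, 23.7 and 35.7 (-2.15 ± 0.21, edgeR adjusted p = 2.09e-06), each below all 3 tailbud type values. Fgf3, Cited1, Arl4d, Nrarp and the unnamed transcript 2610528A11Rik were lower at -2.58, -2.25, -2.02, -1.95 and -2.33, and the call of Nrarp was lost without E10.5 replicate 2, at -2.10. Nkx1-2 was lower at -3.27. Cdx2 did not pass, at 126, 118 and 107 CPM against 192, 213 and 187 (-0.96), nor did Fgf8 (-0.77) or Wnt3a (-0.92). Of 36 Hox genes 8 were lower and none higher, with a median of -0.88. The comparison called 853 genes with all libraries (458 higher and 395 lower), 251 without E10.5 replicate 1 (182 and 69) and 250 without E10.5 replicate 2 (188 and 62). Without E8.5 replicate 2 it called 333 higher and 380 lower, and without the block 238 of its 340 calls were higher. With at least 2 UMIs of Foxa2 and Shh required it called 541 higher and 538 lower. The lower calls thus fell further than the higher ones without either E10.5 library and without the block. They did not without E8.5 replicate 2 or with 2 UMIs of Foxa2 and Shh. With marked doublets out only the E8.5 notochord type sum was left, so that setting is no check on this.

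Promoters are shown for T, the gene of the rule, and for Noto and Samd3, the 2 largest increases named for the notochord type over the tailbud type. The windows are RefSeq sequence of GRCm38.p6, from 250 bases before to 50 after the gene start, on the plus strand at chr17:8434173-8434472, chr6:85423636-85423935 and chr10:26229457-26229756. Capitals mark matches on either strand to a T-box half-site (TCACACC, reverse GGTGTGA) or to the LEF/TCF core (CTTTGA, reverse TCAAAG).
T: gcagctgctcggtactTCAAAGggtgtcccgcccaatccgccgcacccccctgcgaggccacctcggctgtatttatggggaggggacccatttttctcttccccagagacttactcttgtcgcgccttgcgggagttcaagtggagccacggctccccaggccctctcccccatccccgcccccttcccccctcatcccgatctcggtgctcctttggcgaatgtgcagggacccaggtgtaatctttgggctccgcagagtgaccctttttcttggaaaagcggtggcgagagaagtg
Noto: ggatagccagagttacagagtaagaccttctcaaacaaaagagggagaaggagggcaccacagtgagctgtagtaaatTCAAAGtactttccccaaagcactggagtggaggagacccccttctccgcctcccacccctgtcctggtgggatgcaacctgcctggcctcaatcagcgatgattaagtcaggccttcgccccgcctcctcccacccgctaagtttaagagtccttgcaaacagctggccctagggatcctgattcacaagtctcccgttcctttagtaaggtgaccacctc
Samd3: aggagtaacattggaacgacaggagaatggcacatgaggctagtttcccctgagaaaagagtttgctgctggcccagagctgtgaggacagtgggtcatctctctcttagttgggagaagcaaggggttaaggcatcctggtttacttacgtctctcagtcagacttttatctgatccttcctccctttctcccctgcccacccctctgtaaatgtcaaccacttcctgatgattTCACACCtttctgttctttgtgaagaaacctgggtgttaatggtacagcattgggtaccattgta
The half-site was found in Samd3 and the LEF/TCF core in T and Noto, and in the 32851 promoters searched they occurred in 3.98 and 16%. Of the 8 largest increases over the tailbud type, 5 had a promoter entry, with the half-site in 1 and the core in 2 (Noto and Col9a1). Of the 8 largest increases of the tailbud type over paraxial cells, 7 had an entry, with the half-site in none and the core in 1 (Fgf3). These matches are letters in a window and not evidence of binding.

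Gut endoderm cells are the other Foxa2 or Shh cells with an epithelial make-up, and the notochord type differed from them in both directions. Of 11699 genes 3.55% were higher and 3.24% lower. Notochord genes were higher in 14 of 21 and lower in 2, Krt18 (-0.97) and Foxa1 (-0.82), while Krt8 was at 478, 363 and 388 CPM in gut endoderm cells and did not differ past the threshold (-0.20). Noto was listed at 0, 0.296 and 0.288 CPM in gut endoderm cells, where at most 1 UMI was read in a library, and Car3 at 3.49, 3.26 and 3.74 (7.05 ± 0.38, edgeR adjusted p = 2.93e-10). Samd3 had 3, 0 and 0 UMIs in gut endoderm cells, against 63, 40 and 27 in the notochord type. Hes7, Hoxaas3 (an antisense transcript of the Hoxa cluster), Fgf17, Sall3 and Rspo3 were higher by 4.71, 4.69, 4.36, 4.26 and 4.24. Most notochord type cells lacked some of these genes. Hes7 had no UMI in 26 of 42, 16 of 23 and 18 of 24 of them, and Fgf17 in 22, 13 and 17. Endoderm genes were lower in 8 of 11, among them Gata6 and Gata4. Gata6 was at 3.41, 0 and 0 CPM, from few UMIs, against 37.1, 28.7 and 31.7 (fitted at -4.11). Gata4 was at 0, 1.97 and 0 CPM (1 UMI in all) against 15.8, 13 and 9.21. Of 11 epithelial and mesenchymal genes tested 5 were higher and 1 lower. Mesenchymal Vim and Cdh2 were higher by 1.97 and 1.88. Snai2 was at 2.56, 1.97 and 0 CPM against 2.15, 5.03 and 3.45, and Fn1 at 152, 116 and 113 against 128, 123 and 101.

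Genes for secreted proteins were among the decreases that the naming rule gave. Ttr, which encodes transthyretin, was at 0.852, 0 and 0 CPM in the notochord type against 878, 205 and 195, and Nepn and Afp were at 0 in all 3 sums against 193, 74.3 and 57.3 and 85.1, 197 and 86.3 CPM. Spink1, a protease inhibitor gene, was at 21.3, 5.91 and 6.30 CPM against 1474, 33.2 and 48.9 (-5.25 ± 0.71, edgeR adjusted p = 7.68e-05). The retinol carrier gene Rbp4 was at 12.8, 17.7 and 21.0 against 522, 322 and 222 (-4.53 ± 0.25, edgeR adjusted p = 3.89e-10). None of these genes overlapped between the groups. Apom and Apoa2, both apolipoprotein genes, were lower, Apom with 2, 0 and 0 UMIs against 812, 140 and 70 and Apoa2 by a log2 fold change of -3.67. S100g, a calcium-binding protein gene, was at 438, 3.85 and 4.03 CPM in gut endoderm cells and 2.56, 0 and 0 in the notochord type, and without the E8.5 library its call was lost. With marked doublets left out, both E10.5 notochord type sums fell under 10 cells and dropped out, and the notochord type was then represented by E8.5 alone. The 794 calls became 400 without E10.5 replicate 1 and 410 without E10.5 replicate 2.

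Floor plate cells share Foxa2 and Shh with the notochord but belong to the neural tube. Of 11698 genes 6.52% were higher in the notochord type and 4.83% lower. Notochord genes were higher in 12 of 21, with Ntn1, the netrin gene of the floor plate, lower at -4.17. Ntn1 was at 2.56, 7.88 and 0 CPM, from few UMIs, against 32.8, 81.9 and 71.6, so its size is uncertain. Krt19 was at 252, 185 and 187 CPM against 0.361, 1.78 and 3.39 (6.57 ± 0.36, edgeR adjusted p = 6.82e-10) and Krt8 at 8.65, 7.27 and 4.58 CPM in floor plate cells (5.74), without overlap. Noto and Samd3 had no UMI in any floor plate sum. Sostdc1, Cdx4, Cdx2, Hes7 and Cyp26a1 were higher by 6.51, 6.85, 6.38, 6.21 and 5.90. For Hes7 this rests on a minority of notochord type cells, since most had no UMI of it. Neural genes were lower in 10 of 15, among them Nkx2-9 (-3.28), Nkx6-2 (-3.83) and Nkx2-2 (-3.68), and Rfx4, Metrnl, Pantr1 and En1 were lower at -4.66, -3.94, -3.45 and -3.57. Nkx2-2 was at 2.56, 1.97 and 0 CPM, from few UMIs, against 15.5, 37 and 28.3. Irx3 and Lmx1a, which belong to the same list, went the other way at 1.52 and 2.34. Spink1 was lower at -3.50. Cell cycle genes were lower in 7 of 17 with sizes of -0.51 to -0.93, and the inhibitor genes Cdkn1a and Cdkn1c were higher by 4.34 and 0.80. En1 had no UMI in the E8.5 notochord type sum. Calls numbered 1328 with all libraries, 633 without E10.5 replicate 1 and 741 without E10.5 replicate 2.

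Within the notochord type, cells with 1 or 2 UMIs of Foxa2 and Shh together (20, 10 and 5 cells) and those with 3 or more (22, 13 and 19), a split made after the values were seen, are given without a test. Krt8 was at 129, 81.4 and 127 CPM in the former and 579, 730 and 323 in the latter, and Car3 at 54.5, 18.1 and 84.5 against 456, 925 and 787. Sox9 was at 51.2, 31.7 and 141 against 171, 384 and 256. Fgf8 and Hoxc10 ran the other way, with Fgf8 at 159, 127 and 549 against 77.4, 38.4 and 83.8 and Hoxc10 at 177, 385 and 578 against 121, 83.8 and 155. The groups did not overlap in these 5 genes, which were picked after the values were seen, and of 4110 genes with at least 10 UMIs in every library over both groups 5.74% were higher without overlap in the former and 5.96% lower. In endothelial cells Foxa2 was seen in 0 of 190, 8 of 501 and 6 of 463 and Shh in 2, 6 and 10, so a single UMI of either can be free RNA, and its part was not tested.

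Globin and cardiomyocyte markers were at lower levels in both types than in T-free cells. The T-free cells include red cells and cardiomyocytes themselves, so this order does not measure free RNA in the T-positive cells. The 7 globin genes summed to 124, 480 and 490 CPM in the tailbud type and 120, 489 and 478 in the notochord type, against 4295, 7644 and 8190 in all T-free cells, and thus were higher at E10.5 in all of them. Cardiomyocyte genes summed to 39, 29 and 83 CPM in the tailbud type and 63, 81 and 73 in the notochord type, against 858, 309 and 324. Neuronal genes were at 93.9, 56.5 and 44.1 CPM in the tailbud type and 52.8, 23.7 and 50.4 in the notochord type, against 64.9, 251 and 246 in T-free cells, so the E8.5 tailbud type lay above the T-free level through 1 gene of the list, Stmn2, which alone was at 79.3 CPM there and 26.4 in T-free cells. Endothelial genes were at 92, 41.4 and 37.8 CPM in the notochord type and 121, 136 and 129 in T-free cells, below the 168 CPM of the tailbud type in E10.5 replicate 2. Mitochondrial genes took a median of 1.81, 1.82 and 1.85% of the UMIs of T-positive cells. The T-free sums give the scale for stage differences of the libraries themselves, since they move with stage too.

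A stage pattern of the tailbud type was seen in the Hox genes, which mark position along the body axis from low paralogue numbers in the neck to high ones in the tail. Summed over paralogues, group 9 was at 640, 464 and 528 CPM, group 10 at 383, 804 and 804, group 11 at 12.9, 340.5 and 320.2, group 12 at 0, 41.9 and 48.2 and group 13 at 2.57, 35.9 and 46.7. Groups 10 to 13 were thus higher in both E10.5 libraries and group 9 was lower. The pattern was also present per cell. Group 11 had a UMI in 21.1% of tailbud type cells at E8.5 and in 90.0 and 87.4% at E10.5, group 12 in 0 of 171 (which allows up to 1.75%) and in 53.3 and 57.5%, and group 13 in 5.85% and in 56.7 and 55.2%. Group 9 was in 94.7, 95 and 96.6% of the cells. In endothelial cells group 11 was seen in 2.63, 3.39 and 3.02% and group 13 in 1.05, 1.20 and 0.648%, and in paraxial cells group 11 in 0.517, 8.43 and 7.59%. The rise of group 11 was thus also present in paraxial cells, at lower shares.

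Single genes carried this pattern. Hoxd11 was at 9.86 CPM at E8.5 and 263 and 242 at E10.5, at least 24.5 times as high in either library, and at 1.31, 6.56 and 6.32 CPM in all T-free cells. Hoxc10 was at 319, 563 and 547, Hoxa10 at 49.9, 184 and 192, Hoxc11 at 1.07, 47.9 and 45.7, and Hoxd13 at 1.93, 18.0 and 27.7 CPM. Hoxd9 was at 111, 47.2 and 54.9 CPM while its level in T-free cells was 4.95, 12.7 and 11.8, so the stages were ordered oppositely in the tailbud type and in the rest of the embryo. The notochord type showed smaller steps, with group 11 in 23.8, 52.2 and 33.3% of its cells, group 12 in 0 of 42 (which allows up to 7.14%), 30.4 and 25%, and group 13 in 11.9, 26.1 and 25%. The exact intervals of the notochord type overlap between stages for groups 11 and 13.

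**Figure D4:**
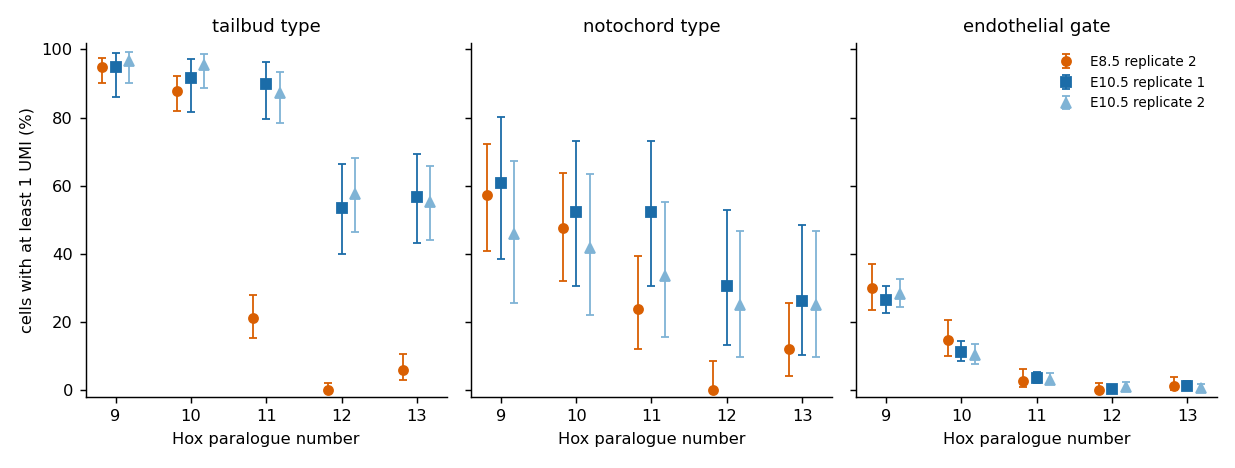
Percentage of cells with at least 1 UMI of any Hox gene of paralogue groups 9 to 13 in the tailbud type, the notochord type and endothelial cells, by library, with exact 95% binomial intervals for counting error. In the tailbud type groups 11, 12 and 13 stand at 21.1, 0 and 5.85% at E8.5 and between 53.3 and 90.0% at E10.5, and in endothelial cells all 3 stay below 4%.

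Of 2477 genes that could be compared in the tailbud type, Hox genes included, 3.43% were at least 2-fold higher at E10.5 than at E8.5 in both E10.5 libraries, and 0.323% (8 genes, of which Hoxd9 is the only Hox gene) at least 2-fold higher at E8.5. Phlda2, an imprinted gene, was at 118 CPM at E8.5 and 5.98 and 7.18 at E10.5, but was also lower in T-free cells at E10.5 (56.4, 3.61 and 3.69). The Wnt antagonist gene Dkk1 was at 72.6, 27.3 and 34.4 CPM, Epha5, an ephrin receptor gene, at 66.6, 17.3 and 18.0, and Lin28a, which encodes an RNA-binding protein of early embryos, at 153, 73.1 and 70.8. All 4 were lower in both E10.5 libraries. In T-free cells Dkk1 and Lin28a had the same order (7.82, 4.02 and 3.44; 87.6, 31.8 and 32.2), while Epha5 did not (3.32, 6.12 and 5.43). Stmn2, known from neurons, was at 79.3, 16.6 and 20.5 CPM in the tailbud type and in the opposite order in T-free cells (26.4, 69.0 and 68.6). Acer2 was at 53.1, 18.0 and 21.6, Uqcrb at 723, 334 and 311, and Prtg and N6amt2 also belonged to the 10 with the largest ratios, at less than 2-fold in the nearer library.

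Of the genes higher at E10.5, several moved as much in the rest of the embryo. Aes was at 17.4, 120 and 114 CPM in the tailbud type and 23.8, 126 and 122 in T-free cells, H1fx at 34.5, 250 and 205 against 35.5, 246 and 185, and Ppp1r14b at 114, 554 and 516 against 107, 607 and 519. These 3 genes gave nearly the same values in both sets of cells. Fabp7 (18.6, 97.8 and 121 CPM), Dlk1 (20.4, 104 and 123) and Jund (32.8, 136 and 133) were higher in T-free cells at E10.5 too, as were the globin genes Hbb-y and Hba-a1. Tcf15, a somite gene, was at 13.9, 115 and 77.5 in the tailbud type and 43.1, 64.9 and 66.5 in T-free cells.

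In the notochord type 3.9% of 2719 genes were at least 2-fold higher in both E10.5 libraries and 1.88% at least 2-fold higher at E8.5, and the genes named here were chosen after the values were seen by the rule used for the tailbud type. Several of the genes named here as higher at E8.5 are known from motile cilia, which was not tested as a group. Fam183b was at 109 CPM at E8.5 and 9.85 and 8.39 at E10.5, Cfap126 at 70.7, 3.94 and 2.1, and Efcab10 at 101, 1.97 and 0. Pifo and Dynlrb2, a dynein light chain gene, were at 81.8 and 71.6 CPM at E8.5 and had no UMI at E10.5, at least 13-fold and 11.4-fold higher at E8.5 with a floor of 3 UMIs per library. Foxj1, the regulator of motile cilia, was at 42.6, 5.91 and 2.1. In T-free cells each of the named cilia genes stayed at or below 3.40 CPM in all libraries. Cfc1, which encodes a Nodal co-receptor of left-right patterning, was at 69.0, 3.94 and 4.2, and the somatostatin gene Sst at 66.4, 0 and 0, where T-free cells had 1.08, 19.1 and 23.0.

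Genes higher at E10.5 in the notochord type included the collagen genes Col11a1 and Col2a1. Col11a1 was at 11.9, 63.1 and 79.7 CPM (T-free cells 6.38, 12 and 11.5) and Col2a1 at 50.3, 158 and 185 (T-free cells 23.5, 37 and 36.3). Snhg18, a long non-coding transcript, was at 26.4, 217 and 164 CPM against 25.8, 37.9 and 38.1 in T-free cells, and the activin receptor gene Acvr2b at 23.9, 112 and 101 against 20.6, 74.9 and 67.9. The E10.5 libraries lay on the same side of E8.5 for each of these genes. Cdkn1c was at 224, 597 and 430 CPM, but was also higher at E10.5 in T-free cells (116, 258 and 260) and in the tailbud type (45.9, 107 and 187). The notochord type had 42 cells at E8.5 and 23 and 24 at E10.5. Most of those at E10.5 were marked as doublets when the expected number was marked, which exceeds that of the score's own threshold. The part of doublets in these levels was not tested.

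**Figure D5:**
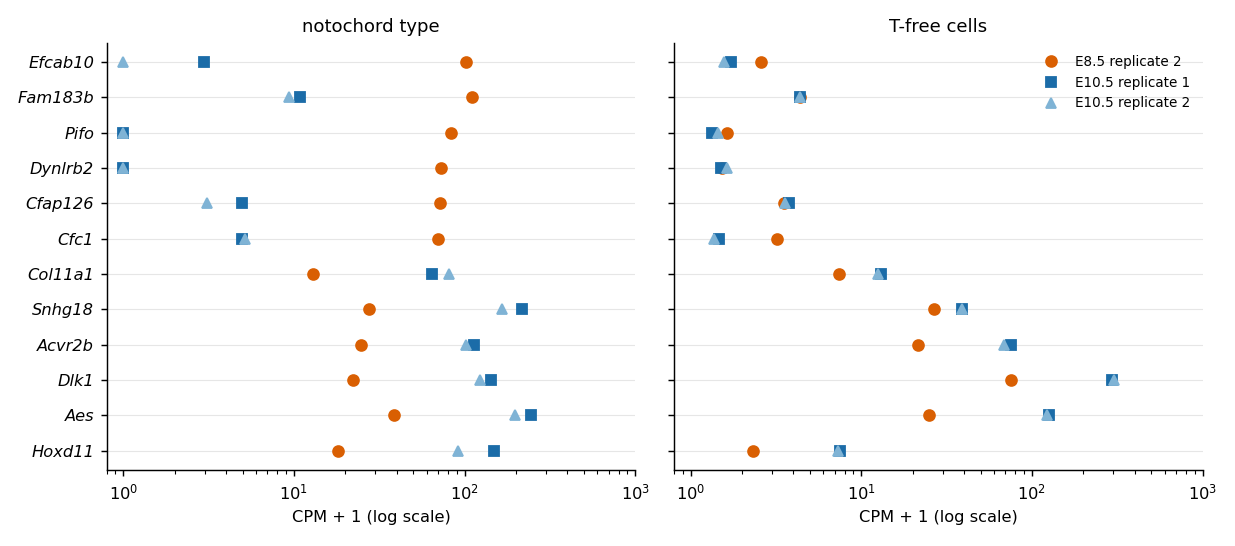
CPM + 1 on a log axis for 12 genes in the notochord type (left) and in all T-free cells (right), 1 point per library. The 6 upper genes are high at E8.5 in the notochord type (69.0 to 109 CPM) and near the left edge at E10.5, the 6 lower ones are higher at E10.5, and in T-free cells the upper 6 stay low at both stages.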

How the data were processed

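UMI counts per gene and barcode were deposited by the authors as one matrix per sample, made with Cell Ranger on mm10. The submitters' processing notes name version 2.1.1, while the matrix headers of the embryos name 3.1.0, and the methods of the study state default parameters. The counts were used unnormalized. Cells were grouped by UMI thresholds and doublets were scored with Scrublet. Its own threshold marked 3 of 5657 cells at E8.5, so it did not work there. The expected number was marked instead, in every library. At E10.5 this marked 1721 and 1632 cells, where Scrublet's own threshold marked only 399 and 474. UMIs were summed per library and group, leaving out sums under 10 cells. These 18 sums were fitted together with edgeR 4.0.16 in R 4.3.3 (TMM, filterByExpr, quasi-likelihood test, library as a block, 10 residual degrees of freedom), with Benjamini-Hochberg adjustment over all genes and a threshold of 0.05. DESeq2 1.42.0 was an alternative. The script was tested on simulated data. Cells of 1 library share a suspension, so the library is the block. Deviations from group means correlated within a library with a median r of 0.387, 0.214 and 0.205 and a lowest r of 0.173, 0.0578 and 0.0424. The labels do not say that the E10.5 libraries came from separate embryos, so the spread between them may be technical only. The spread behind the p-values also holds differences of the cell groups between stages. It may not measure the spread between embryos of a stage. Genes named beyond the lists are the 8 largest log2 fold changes each way per comparison, with the same sign in every library and a mean of at least 50 CPM in the higher group, and 10 stage genes each way. The members and lists were chosen with earlier results of these data known, and sub-groups, notochord type stage genes and promoter sets after the values were seen.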

Additional observations from a re-analysis of the deposited data

Results flagged for a closer look

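In 8 of 734 pairs of gene and comparison the E8.5 library and both E10.5 libraries lay on opposite sides, by at least 1.5-fold each way with over 3 UMIs in every sum. None of these differences was tested, and stage and library cannot be told apart. Between the notochord type and the tailbud type, the log2 ratio of Hoxc11 was 2.25 at E8.5 and -1.80 and -2.44 at E10.5, and that of Hoxd11 was 0.79 at E8.5 and -0.83 and -1.42 at E10.5. Both genes were at higher levels at E10.5 in both types, with Hoxc11 at 5.11, 13.8 and 8.39 CPM in the notochord type and 1.07, 47.9 and 45.7 in the tailbud type. Against floor plate cells, the log2 ratio of the notochord type for Tppp3 was 2.12 at E8.5 and -3.45 and -1.72 at E10.5, for Fst, an activin antagonist gene, 1.56 and then -1.45 and -2.37, and for Nrarp, a Notch feedback gene, 1.24 and then -2.36 and -0.65. Against gut endoderm cells it was 1.12 and then -0.94 and -1.02 for Hoxc4 and -1.10 and then 1.79 and 2.04 for Spon1. In the tailbud type against spinal neural cells, Isl1 was at 0.90 and then -1.26 and -1.08.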

How the results depend on the processing

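Counts of genes called moved with the replicate block, that is, the pairing of sums from the same library, and with the library left out. Without the replicate block 620 genes were called between the tailbud type and paraxial cells (1464 with it), 1282 against spinal neural cells (2621), and for the notochord type 457 against gut endoderm (794), 835 against floor plate (1328) and 340 against the tailbud type (853). Leaving out 1 library gave 726 to 2124, 1122 to 2919, 400 to 695, 633 to 1195 and 250 to 713 calls in the same order, with the highest count without E8.5 replicate 2 and the lowest without an E10.5 library in each. With no filter on low counts 1244 genes were called against gut endoderm. With marked doublets out, both E10.5 notochord type sums dropped out, so the notochord type was E8.5 replicate 2 alone, assumed to vary like the other groups, whose spread the fit used. It then gave 491 calls there and 436 against the tailbud type, which are no check on replicates. Of the 80 genes named as largest, 80 kept their call under RLE, DESeq2, no filter, at least 3 UMIs of T and a mitochondrial ceiling of 5%, 79 without each library, 77 with doublets out (48 of the 80 then rest on 1 notochord type sum) and 73 without the block, where Hba-a2 and Twist1 (against paraxial cells), S100g and Spink1 (gut endoderm), Spink1 (floor plate) and Nrarp and Cited1 (tailbud type) lost it. These 80 are counted per gene and comparison, so a gene can count more than once. Other list genes passed in 542 pairs of gene and comparison, and 360 to 541 of these pairs kept the call. Gate genes, whose calls follow from the choice of cells, were not taken out of these pairs. Between the notochord type and the tailbud type, of 60 such genes 31 kept it without E10.5 replicate 1, 33 without E10.5 replicate 2, 33 without the block and 31 with doublets out, and Emcn and Kdr reversed with at least 3 UMIs of T against spinal neural cells (-0.53 and -0.48). The cause was not tested. The share of T-positive cells was 6.20, 1.25 and 1.58% with at least 1 UMI of T, 3.09, 0.423 and 0.616% with 3, 3.18, 0.359 and 0.497% with floors of 300 UMIs and 270 genes, and 1.61, 0.290 and 0.403% thinned to 5000 UMIs. The notochord type share was 14.6, 19.3 and 19.8% with 2 UMIs of Foxa2 and Shh, and 18.7, 14.52 and 9.88% with doublets out (19.7, 27.7 and 21.6% as reported). With thinning, Sox2 was in 7.51, 18.0 and 14.6% of tailbud type cells, Tbx6 in 17.3, 26.9 and 29.2% and both in 0.349, 3.44 and 1.27%. With 2 UMIs counted as seen, Sox2 was in 10.53, 25 and 21.8%, Tbx6 in 28.1, 35 and 39.1% and both in 0, 5 and 2.30%.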
